A study of Saccharomyces cerevisiae with 2 samples.

Results

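The genes described here encode the machinery that copies chromosomal DNA in budding yeast. They were chosen by name as open reading frames (ORFs) with 1 of 42 standard gene names, and all 42 were found among the 5798 ORFs of both deposited replicate tables. The samples were 2 biological replicates of 1 strain, JZY65 (genotype {delta}rpb4), in which the coding sequence of RPB4 is deleted. They were grown in YPD, a rich medium, at 30 °C to mid-log phase, and total RNA was sequenced from its poly(A) ends (3' READS), so that every read gives the 3' end of 1 transcript. Rpb4 is a subunit of RNA polymerase II that forms the stalk of the enzyme together with Rpb7. No strain that carries RPB4 was analysed here, so none of the values is an effect of the deletion, and with 1 group no test between conditions could be run. The comparisons are between members, between replicates, and between members and all genes used, and genes are not replicates of a condition.

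Replication starts at origins that are bound by the origin recognition complex (ORC). ORC and Cdc6 load the ring-shaped helicase Mcm2-7, which is activated when Cdc45 and the GINS complex join it under the control of the kinase Cdc7 and of the firing factors Sld2, Sld3 and Dpb11. Polymerase alpha with its primase then starts each strand, polymerases epsilon and delta extend it, replication protein A coats single-stranded DNA, the clamp loader RFC places the sliding clamp PCNA, and Cdc9 ligates the fragments. In yeast, cleavage and polyadenylation of a transcript commonly take place at several sites in the 3' region of 1 gene.

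Reads were counted in the 400 nt after each stop codon (the window), and the ORF windows held 27375007 reads in replicate 1 and 24905373 in replicate 2. The deleted RPB4 ORF held 0 of the gene's 4486 ORF and window reads in replicate 1 (a share of up to 0.0669%) and 0 of 4066 in replicate 2 (up to 0.0738%). A gene was used if it had at least 100 window reads in each replicate, which held for 4939 ORFs and for all 42 replication genes. The replication genes had 59071 and 54303 window reads, or 0.216% and 0.218% of all ORF window reads, and from 109 to 8262 reads per gene in replicate 1 and from 107 to 5968 in replicate 2. Reads were not collapsed by molecular identifiers, so intervals on shares (Wilson, 95%) and limits cover counting error only.

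The first question was where the transcripts of replication genes end. The mean endpoint, the read-weighted mean position in nt after the stop codon, ran from 43.8 nt for RFC4 to 240.8 nt for SLD3. The median over the 42 genes was 104.7 nt ± 7.68 (SD of the medians of 2 replicates, which were 97.0 and 107.9 nt), against 122.8 nt ± 0.939 for all genes used. Of the 42 genes, 17 had an endpoint beyond the median of all genes, or 40.5% against 50% by construction. CDC6 and the genes MCM2 to MCM7 all lay beyond the median, and the genes of replication protein A and of the small clamp loader subunits all lay short of it. In the order of all 42 endpoints, 20 of 41 neighbouring genes had overlapping replicate values and cannot be placed in order.

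**Figure D1:**
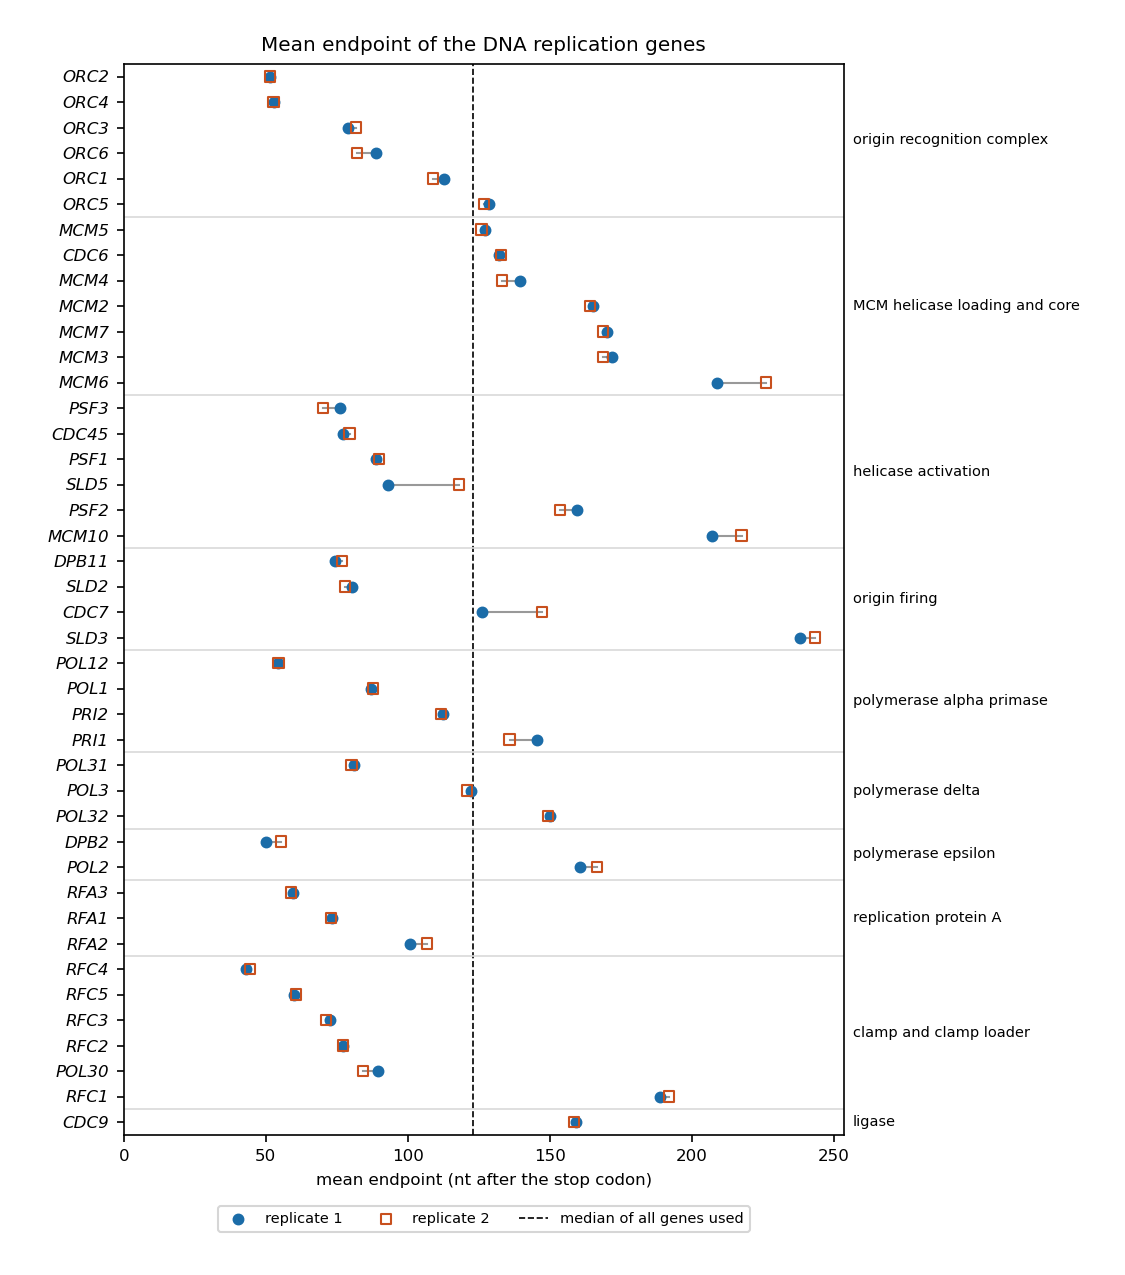
Mean endpoint in nt after the stop codon (x axis) of each DNA replication gene (rows, grouped by complex), with a filled circle for replicate 1, an open square for replicate 2 and a dashed line at the median of all genes used (122.8 nt). All 7 genes of helicase loading and core lie right of the line, and the 3 genes of replication protein A lie left of it.

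The 6 genes of ORC, the complex that marks origins and recruits the helicase, mostly had short 3' ends. ORC2 ended at 51.4 nt in both replicates. ORC4 ended close to it, at 52.8 and 52.7 nt. ORC3 ended at 78.8 and 81.7 nt, ORC6, the smallest subunit, at 88.8 and 82.1 nt and ORC1, the ATPase subunit, at 112.8 and 109.0 nt. ORC5 had the longest ends, at 128.6 and 126.9 nt, and was the 1 ORC gene beyond the median of all genes. In positions 1 to 300 alone ORC5 averaged 117.0 nt, short of the 119.7 nt of all genes in that range. The replicate values of neighbouring ORC genes in this order did not overlap. The gap between ORC2 and ORC4 was small beside the counting errors on the endpoints, so their order is not settled. These errors were 0.719 and 0.525 nt for ORC2 and 0.948 and 1.06 nt for ORC4. The replicate 2 gap between ORC3 and ORC6 was likewise small beside the counting errors of 0.344 and 2.16 nt. Within these genes the reads were spread over several positions. ORC2 had 4 positions with at least 10% of its reads, at 31, 41, 43 and 59 nt, of which 43 nt led in replicate 1 and 59 nt in replicate 2. ORC4 likewise had 4, at 36, 39, 53 and 60 nt, with 36 nt leading in replicate 1 and 39 nt in replicate 2. ORC1 had a first cluster of sites at 66 to 102 nt with 54.5% ± 3.67 of its reads (SD, n = 2) and a second at 120 to 138 nt with 31.4% ± 2.85.

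CDC6, which loads the helicase together with ORC, and the helicase genes MCM2 to MCM7 had the highest median endpoint of the groups with more than 1 gene, 164.6 nt, with 7 of 7 beyond the median of all genes. MCM5 was the shortest, at 127.3 and 125.9 nt, followed by CDC6 at 132.2 and 132.8 nt and MCM4 at 139.3 and 133.1 nt. In replicate 2 the gap between CDC6 and MCM4 was small beside the counting errors of 0.483 and 1.92 nt. The order of CDC6 and MCM4 thus rests on replicate 1. MCM2 ended at 165.1 and 164.1 nt. MCM7 ended at 170.1 and 168.6 nt and MCM3 at 171.9 and 168.6 nt, and these values overlapped, so that the order of MCM7 and MCM3 is not resolved. MCM6 was the longest at 208.9 and 226.0 nt. A feature of its neighbourhood is that the annotated replication origin ARS706 adjoins MCM6 on its 3' side (YGL201C, chromosome VII, 117854 to 120907, minus strand, distance given as 0).

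CDC6 and the genes MCM2 to MCM7 reached these endpoints in different ways. MCM5 (YLR274W, chromosome XII, 691555 to 693882, plus strand) and CDC6 (YJL194W, chromosome X, 69338 to 70879, plus strand) each used mainly 1 position. For MCM5 it was 132 nt, with 68.4% (Wilson 95% interval 65.4 to 71.2) of the window reads in replicate 1 and 67.2% (64.0 to 70.2) in replicate 2. For CDC6 it was 133 nt, with 77.7% (73.4 to 81.5) and 74.1% (68.6 to 78.9). MCM4 was the opposite case, with the highest effective number of positions of all 42 genes (the number of equally used positions that would give the same Shannon entropy), 20.2 and 19.6. Its most used position took 13.6% (11.3 to 16.2) of the reads in replicate 1, at 123 nt, and 11.3% (9.22 to 13.7) in replicate 2, at 142 nt. MCM3 had 2 clusters of sites, at 111 to 156 nt with 36.7% ± 4.60 and at 174 to 227 nt with 63.3% ± 4.60 of its reads (SD, n = 2). MCM6 put 65.3% ± 13.1 of its reads at 171 to 201 nt and the rest mostly at 245 to 349 nt, and beyond 300 nt lay 10.3% (8.38 to 12.5) of the reads in replicate 1 and 14.3% (12.1 to 16.8) in replicate 2. With positions 1 to 300 alone its mean endpoint was 201.5 nt.

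**Figure D2:**
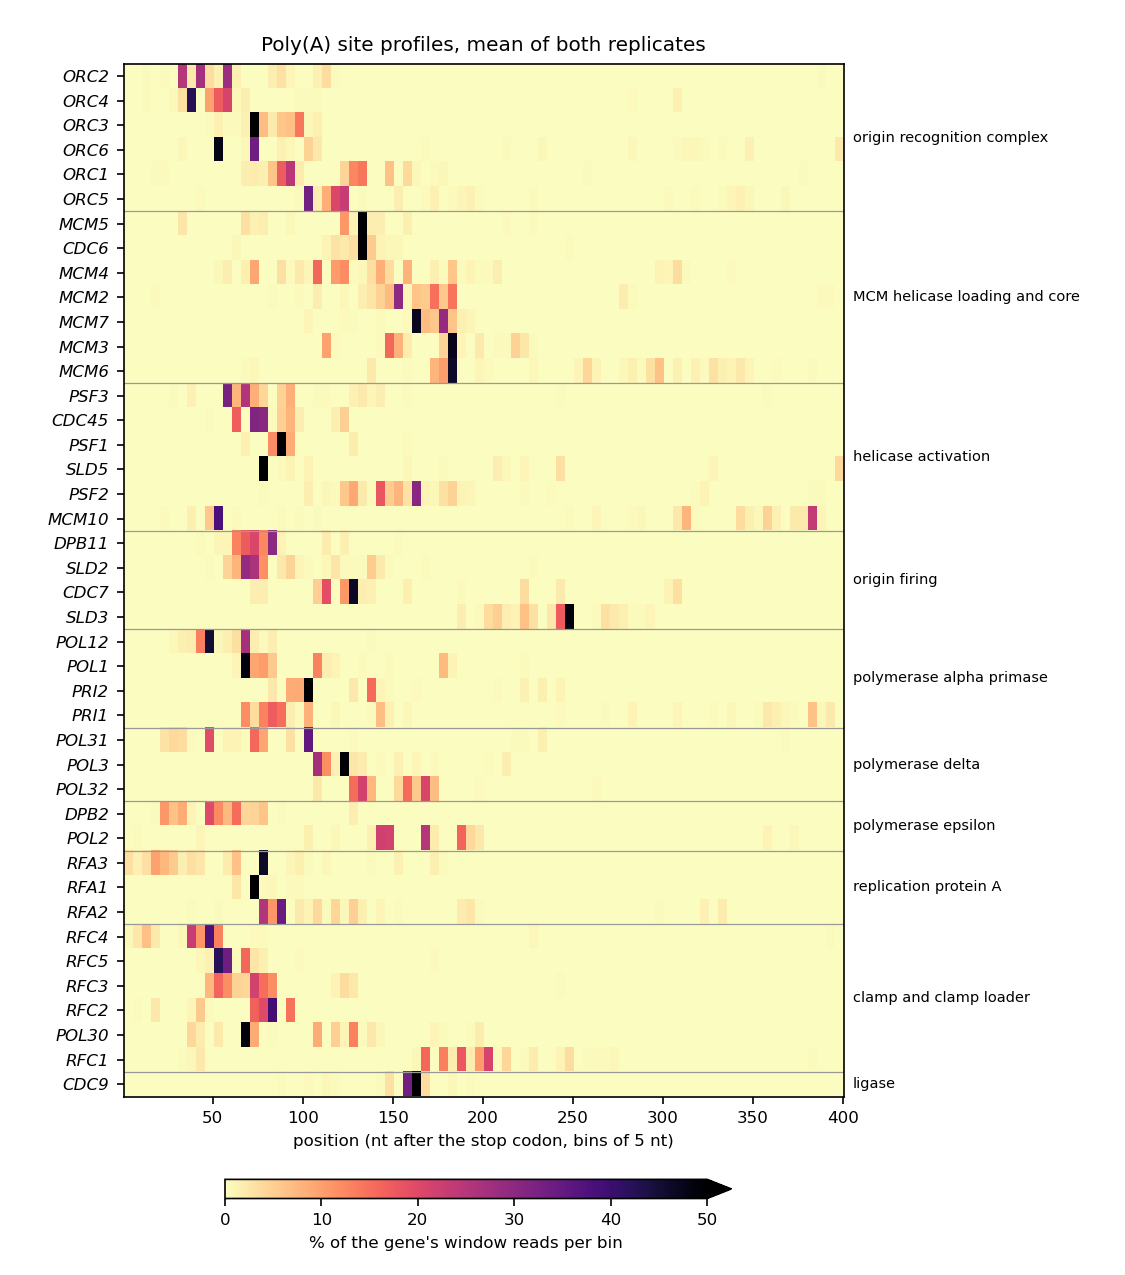
Share of each gene's window reads (colour, percent per bin of 5 nt, mean of both replicates, scale ends at 50) along the 400 nt after the stop codon (x axis), for the 42 genes in rows grouped by complex. MCM10 has signal near 53 nt and again near 381 nt, and SLD3 has its signal around 248 nt.

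The factors that turn the loaded ring into an active helicase had mixed ends. CDC45 ended at 77.3 and 79.5 nt. Of the GINS genes, PSF3 ended at 76.1 and 70.3 nt, PSF1 at 88.7 and 89.8 nt, SLD5 at 93.1 and 118.1 nt and PSF2 at 159.4 and 153.7 nt, and of these 4 genes only PSF2 lay beyond the median of all genes. SLD5 (YDR489W, chromosome IV, 1431012 to 1431896, plus strand) and PSF1 were dominated by 1 position each. SLD5 had 86.9% (84.1 to 89.4) and 80% (76.5 to 83.1) of its reads at 80 nt, and PSF1 had 73.2% (70.3 to 75.8) and 78.6% (75.8 to 81.2) at 89 nt. PSF2 had 12.6 and 12.1 effective positions, with 30.5% ± 3.22 of its reads at 163 nt (SD, n = 2).

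MCM10, a scaffold protein of helicase activation, had its reads in separate groups at the ends of the window (YIL150C, chromosome IX, 61013 to 62728, minus strand). A proximal cluster at 36 to 69 nt held 46.9% (43.5 to 50.2) of the reads in replicate 1 and 44.6% (41.3 to 48.0) in replicate 2, with its highest position at 53 nt. Beyond 300 nt lay 48.1% (44.8 to 51.5) and 52.1% (48.8 to 55.5), mostly in a cluster at 374 to 387 nt with 28.2% ± 0.362 of the reads (SD, n = 2). The mean endpoint of 212.3 nt ± 7.37 therefore falls where few reads lie, and in positions 1 to 300 it was 63.6 nt, which is also short of the median of all genes there. The ORF of ESL1 begins at position 319 on the same strand, so most of the distal reads lie inside its ORF and cannot be assigned to MCM10 or ESL1.

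The genes of origin firing include DPB11 and SLD2, whose proteins bind each other once Sld2 is phosphorylated. DPB11 ended at 74.3 and 76.7 nt, and SLD2 at 80.4 and 77.8 nt. In the order of mean endpoints RFC2 and CDC45 lay between DPB11 and SLD2. The replicate values of CDC45 overlapped those of RFC2 and those of SLD2, so the place of CDC45 is not resolved. CDC7, of the kinase that phosphorylates the helicase, ended at 126.2 and 147.1 nt on 233 and 257 reads, with 46.1% ± 1.43 of them at 128 nt (SD, n = 2). SLD3, which recruits Cdc45 to the helicase, had the longest endpoint of the 42 genes, at 238.1 and 243.4 nt (YGL113W, chromosome VII, 295932 to 297938, plus strand). Its sites formed 1 group from 178 to 291 nt with 99.96% of the reads in both replicates, and 248 nt was the most used position in both, with 46.5% ± 6.44 (SD, n = 2).

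The polymerase genes covered most of this range. Of polymerase alpha and primase, POL12, the regulatory subunit, ended at 54.2 and 54.5 nt, POL1, the catalytic subunit, at 87.0 and 87.9 nt, PRI2, the large primase subunit, at 112.5 and 111.8 nt and PRI1, the small and catalytic primase subunit, at 145.5 and 135.8 nt. PRI1 was the 1 gene of these 4 beyond the median of all genes, and 18.7% (17.4 to 20.1) and 14.5% (13.2 to 15.9) of its reads lay beyond 300 nt. In positions 1 to 300 its endpoint was 95.2 nt, short of the median of all genes in that range (119.7 nt). Of polymerase delta, POL31 ended at 81.2 and 80.2 nt, the catalytic subunit gene POL3 at 122.2 and 120.8 nt and POL32 at 149.9 and 149.4 nt. POL31 had a broad cluster at 23 to 81 nt with 58.0% ± 1.92 of its reads and a narrow cluster at 93 to 104 nt with 38.3% ± 2.65 (SD, n = 2), and 104 nt led in replicate 1 but 50 nt in replicate 2. Of polymerase epsilon, DPB2 ended at 50.1 and 55.3 nt and the catalytic subunit gene POL2 at 160.6 and 166.4 nt. POL2 lies directly upstream of ORC5 on the same strand, with 219 nt between the ORFs, so its mean endpoint left 55.5 nt to the ORC5 start codon.

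All 3 genes of replication protein A, which protects single-stranded DNA, had endpoints short of the median of all genes. RFA3 ended at 59.7 and 58.9 nt, RFA1 at 73.2 and 72.9 nt and RFA2 at 100.9 and 106.7 nt. They differed in concentration. RFA1 (YAR007C, chromosome I, 156754 to 158619, minus strand) put 92.9% (90.7 to 94.6) and 93.9% (91.5 to 95.6) of its reads at 73 nt, which is base 156681, and had 1.44 and 1.39 effective positions. RFA2 had 9.44 and 10.2 effective positions and 33.3% ± 0.508 of its reads at 89 nt. RFA3 had 46.0% ± 0.873 at 77 nt, and its sites formed 1 cluster that began 2 nt after the stop codon and ended at 114 nt. This cluster joined proximal reads to those at 77 nt across a stretch near 50 nt with almost no reads. The mean endpoint of RFA3, 59.3 nt, therefore falls where few reads lie, with 1.89% in the 5 nt up to 60 nt.

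The clamp loader genes fell into a short and a long class. RFC4 ended at 43.2 and 44.3 nt, RFC5 at 59.8 and 60.6 nt, RFC3 at 72.5 and 71.1 nt and RFC2 at 77.3 and 77.1 nt, so the 4 small subunits lay between 43.8 and 77.2 nt in their means. RFC1, the large subunit, ended at 188.6 and 191.9 nt, far beyond the range of the small subunits. POL30, of the sliding clamp PCNA, ended at 89.4 and 84.3 nt on 225 and 222 reads. RFC5 and POL30 are convergent neighbours on chromosome II (RFC5 at 423765 to 424829, plus strand, and POL30 at 424990 to 425766, minus strand) with 160 nt between their stop codons. Their mean endpoints sum to 147.1 nt, and 0.546% ± 0.773 of the RFC5 reads and 3.12% ± 2.50 of the POL30 reads lay inside the ORF of the other gene, its stop codon included (SD, n = 2). CDC9, of DNA ligase, ended at 159.3 and 158.4 nt, with 96.6% ± 0.352 of its reads at 143 to 170 nt.

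The second question was how many sites each gene uses. The leading position took a median of 33.4% of the reads of a replication gene and 33.7% over all genes used, and the median effective number was 8.61 ± 0.216 positions in the replication genes and 8.46 ± 0.0173 in all genes (SD of the medians of 2 replicates). More than 50% of the reads lay at 1 position in 6 of 42 genes, or 14.3% against 19.2% of all genes. They were RFA1, SLD5, PSF1, CDC6, MCM5 and PRI2, the last with 59.7% (55.4 to 63.9) and 52.6% (48.1 to 57.0) at 101 nt. Of the GINS genes SLD5 and PSF1 were among these 6, while PSF2 and PSF3 had 30.5% and 32.5% at their leading positions. At the other end, MCM4, PRI1, DPB2 and RFC1 had between 14.6 and 19.9 effective positions in their means. The middle 80% of the reads spanned more than 100 nt in 4 genes, MCM10, MCM4, MCM6 and PRI1 (9.52% against 20.9% of all genes).

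**Figure D3:**
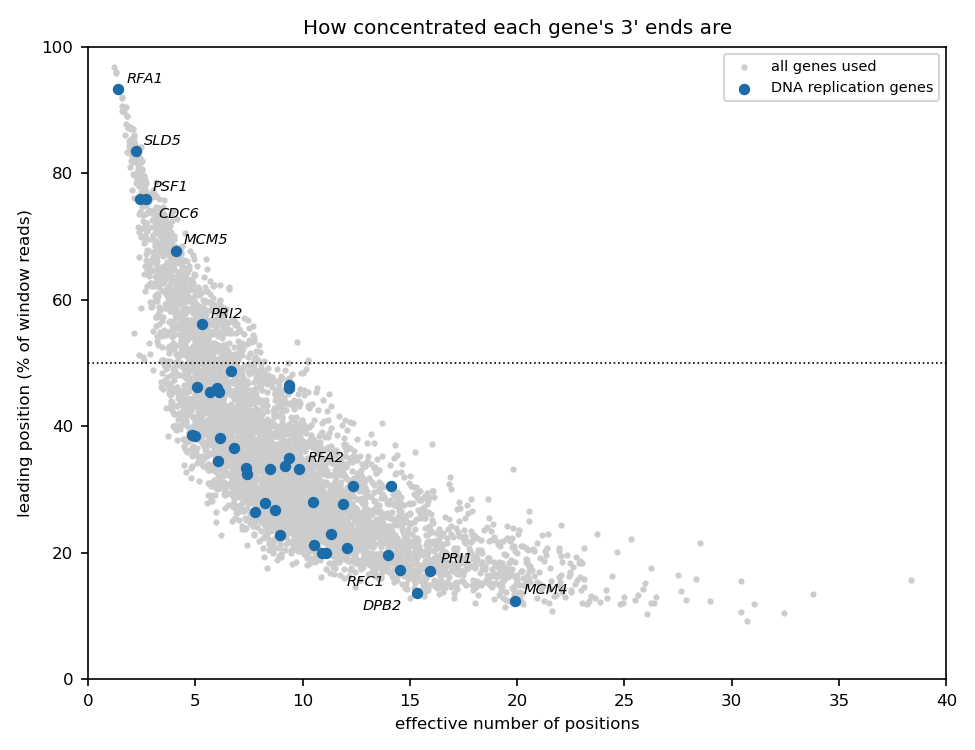
Share of window reads at the leading position (y axis, percent) against the effective number of positions (x axis), as means of both replicates, for the 42 DNA replication genes (blue) and all genes used (grey). RFA1 stands at 93.4% and 1.42 positions and MCM4 at 12.4% and 19.9 positions, and a dotted line marks 50%.

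The replicates were then compared. Both replicates had the same most used position in 32 of 42 genes, 76.2% against 83.8% of all genes, and positions within 5 nt in 34 (81.0% against 87.6%). The 10 genes with different positions were ORC2, ORC4, MCM4, CDC45, SLD2, POL31, POL32, POL2, DPB2 and RFC3, and in each of them the leading position took at most 36.6% of the reads in either replicate. The mean endpoint differed by a median of 1.94 nt between replicates, against 2.03 nt for all genes. For 18 of 42 genes it was larger in replicate 2, or 42.9% against 59.1% of all genes. A difference of more than 20 nt was found in SLD5 and CDC7 (4.76% against 2% of all genes). In SLD5 it was 25.1 nt, with counting errors of 1.88 and 3.76 nt on the endpoints, and 1.27% (0.647 to 2.49) of the reads in replicate 1 and 8.07% (6.10 to 10.6) in replicate 2 lay beyond 300 nt. In the mean of both replicates 4.67% of the SLD5 reads lay beyond 300 nt and 3.80% in the last 5 nt of the window, past which ends are missed. In CDC7 the difference was 20.9 nt, with counting errors of 2.18 and 3.41 nt. Its share beyond 300 nt was 2.58% (1.19 to 5.50) in replicate 1 and 6.23% (3.87 to 9.87) in replicate 2, with overlapping intervals. The CDC7 replicates also differed before 300 nt, where 90% of the reads was reached at 133 nt in replicate 1 and at 243 nt in replicate 2. SLD5 and CDC7 each had the same most used position in both replicates.

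Levels were given as RPM, window reads per 1000000 ORF window reads. Each read marks a transcript end, so no correction for gene length was made. Reads were not collapsed by molecular identifiers, so RPM counts reads and not transcripts, and ends beyond 400 nt are missed. The replication genes had a median level of 36.9 ± 2.12 RPM (SD of the medians of 2 replicates) against 52.9 ± 2.57 for all genes used, and 13 of 42 exceeded the median of all genes, or 31.0% against 50% by construction. RFA2 had the highest level, 301.8 and 239.6 RPM, and RFC2 the lowest, 3.98 and 4.30. In the order of levels, 33 of 41 neighbouring genes had overlapping replicate values.

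**Figure D4:**
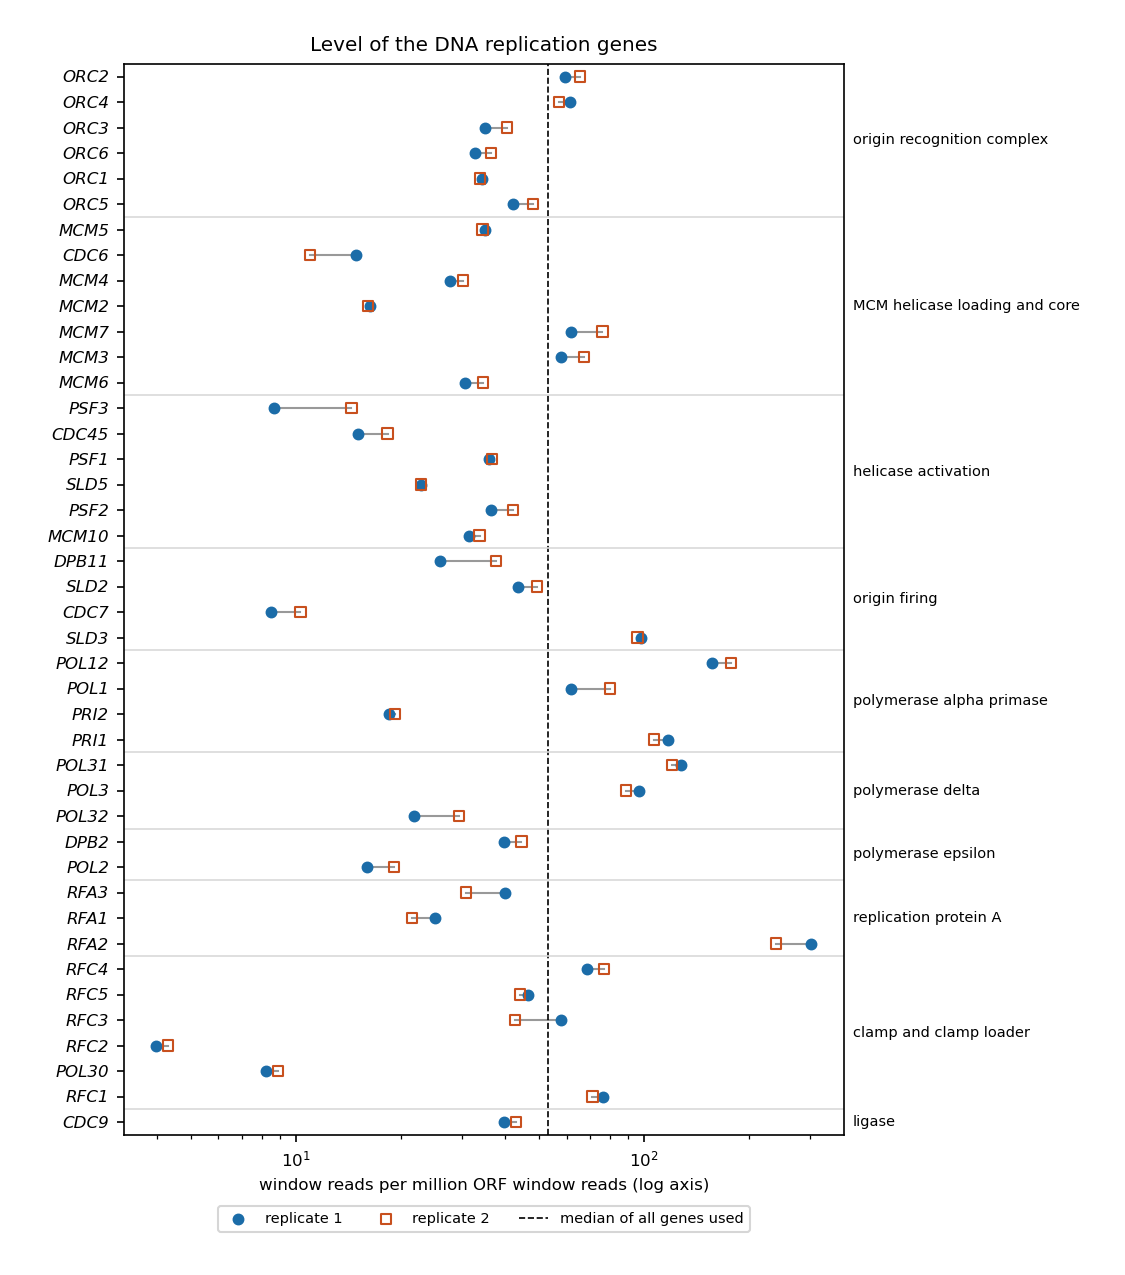
Level of each DNA replication gene in RPM (x axis, log scale), with a filled circle for replicate 1, an open square for replicate 2 and a dashed line at the median of all genes used (52.9 RPM). RFA2 and POL12 lie furthest right and RFC2 furthest left, with RFC2 and POL30 apart from the other clamp and clamp loader genes.

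Subunits of 1 complex differed in level to different degrees. The ORC genes were the most even, from 34.0 ± 0.215 RPM for ORC1 to 62.4 ± 4.33 for ORC2 (SD, n = 2), a ratio of 1.83. MCM2 to MCM7 ran from 16.2 ± 0.107 for MCM2 to 68.9 ± 9.96 for MCM7, a ratio of 4.25, with MCM3 at 62.5 ± 6.55 and MCM4, MCM5 and MCM6 at 27.7 to 35.0 in single replicates. The GINS genes ran from 8.66 and 14.5 for PSF3 to 36.3 and 42.0 for PSF2. In replication protein A, RFA2 exceeded RFA1 (25.1 and 21.6 RPM) by a factor of 11.6 in the means, and RFA3 had 39.9 and 30.8. In polymerase alpha, POL12 had 156.7 and 178.2, PRI1 117.1 and 107.0, POL1 61.8 and 79.8 and PRI2 18.5 and 19.3, with no overlap between neighbours. The clamp and its loader had the widest range, a ratio of 17.8, from RFC2 and POL30 (8.22 and 8.91) to RFC4 (72.6 ± 5.85) and RFC1 (73.8 ± 3.73), whose replicate values overlapped. Of the genes of origin firing, CDC7 had 9.42 ± 1.28, DPB11 31.8 ± 8.29, SLD2 46.4 ± 4.05 and SLD3 96.9 ± 1.59 RPM. As a ratio, the replicates differed most in PSF3, by 0.74 on the log2 scale, with replicate 2 higher.

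Reads inside the coding sequence were the third measure. They made up a median of 1.55% of the ORF and window reads of the replication genes and 1.19% of those of all genes used, and more than 10% in 7 of 42 genes, or 16.7% against 15.6% of all genes. POL2 had by far the highest share of the 42, 44.3% (40.8 to 47.8) in replicate 1 and 33.1% (29.8 to 36.7) in replicate 2, from 348 and 237 reads (YNL262W, chromosome XIV, 148212 to 154880, plus strand). It also has the longest ORF of the 42, at 6669 nt. Per kilobase of ORF its 43.9 reads were fewer than the 225.5 of ORC4, which had 19.4% (17.7 to 21.1) and 18.1% (16.4 to 19.99) of its reads inside the ORF. These counts per kilobase are not scaled to level, and ORC4 had more window reads than POL2 (1548 against 458 in the means). The other 5 were MCM4, POL1 (13.4% ± 3.11), ORC3 (12.0% ± 1.37), ORC1 (11.8% ± 1.01) and DPB11 (10.5% ± 2.89; SD, n = 2). MCM4 had 21.6% (19.1 to 24.3) in replicate 1 and 10.6% (8.67 to 12.8) in replicate 2, and these intervals did not overlap. The same held for POL2, POL1 and DPB11, each higher in replicate 1, but not for ORC1, ORC3 and ORC4. Outside these 7 genes such differences went both ways, as in MCM6 (11.4% and 3.70%) and ORC6 (1.11% and 4.13%). PSF2, RFA2 and RFC4 each had under 0.1% of their reads there in the mean.

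**Figure D5:**
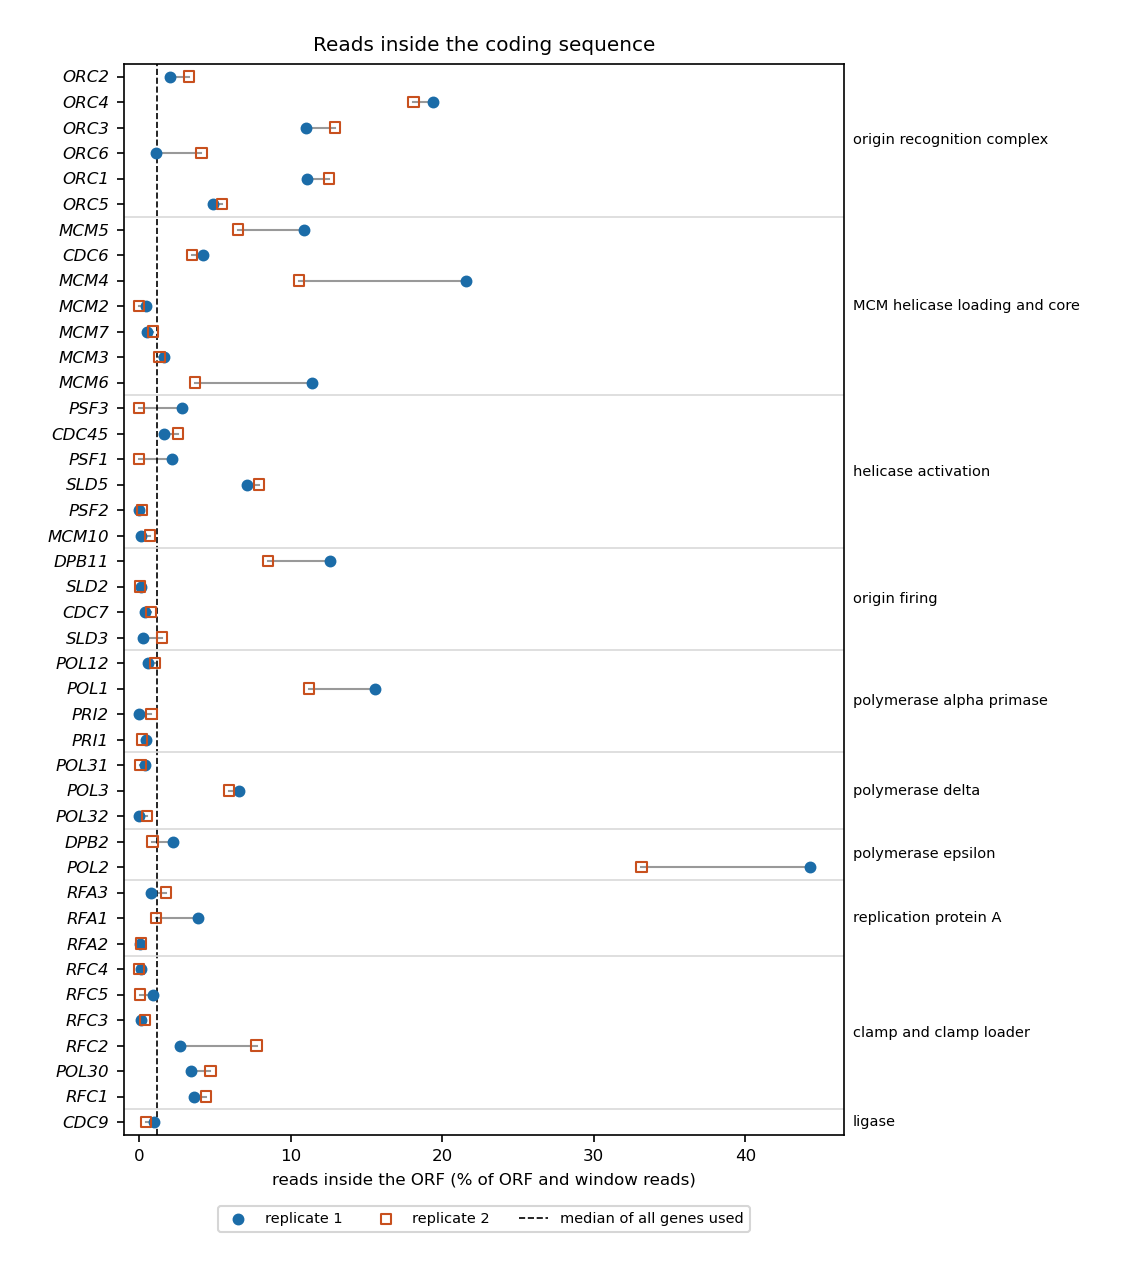
Reads inside the ORF as a percent of ORF and window reads (x axis) for each DNA replication gene, with a filled circle for replicate 1, an open square for replicate 2 and a dashed line at the median of all genes used (1.19%). POL2 stands at 44.3% and 33.1%, followed by ORC4 and MCM4.

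The surroundings of the genes set how far their 3' ends can be told from those of neighbours. A feature on the same strand reached into the window of 12 of 42 genes (28.6% against 23.8% of all genes), namely ORC3, ORC4, MCM4, MCM10, CDC45, PSF1, DPB11, SLD2, POL12, POL31, POL2 and RFC4, and reads in the shared part cannot be separated. A convergent ORF ends within 400 nt in 18 genes (42.9% against 40.6%). In 7 of these 18, or 38.9% against 43.6% of all such genes, more than 10% of the window reads lay inside the convergent ORF, its stop codon included, on the opposite strand. The PKH1 ORF begins at position 72 of the SLD5 window, and 99.6% ± 0.496 of the SLD5 reads lay in it (SD, n = 2). The share was 99.2% ± 1.07 for PSF2 with JEM1 from position 103 and 97.7% ± 1.01 for CDC9 with CDC36 from position 122. For ORC6, with TOM71 from position 53, it was 99.2% ± 0.0871. The ORC6 cluster at 53 to 54 nt, with 47.9% ± 3.40 of the ORC6 reads, lies within the TOM71 stop codon itself. For PRI1 the share was 81.1% ± 2.48, for SLD3 74.6% ± 9.999 and for DPB2 40.1% ± 10.8. For RFC2, no read reached the ORF of its convergent neighbour HAM1, which begins at position 102. It had 0 of 109 reads there in replicate 1, a share of up to 2.75%, and 0 of 107 in replicate 2, up to 2.80%.

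A list of 25 other replication genes was set beside them, of which 24 were used. TAH11, whose protein is the Cdt1 partner of the helicase ring, had 78 and 109 window reads and fell below the filter. Of the 24, 13 had an endpoint beyond the median of all genes, which 50% of all genes exceed by construction. The median over the 24 was 127.1 nt (123.2 and 129.5 nt in the replicates), against 122.8 nt for all genes used. The longest were DBF4, of the regulatory partner of Cdc7 (240.1 nt ± 1.84, SD, n = 2), and the topoisomerase gene TOP2 (221.9 nt ± 4.14), and the shortest were RNH202, of ribonuclease H2 (34.8 nt ± 0.528), and TOF1, of the fork protection complex (60.6 nt ± 0.804). RNH202 shares its window with a feature on its own strand. More than 50% of the reads lay at 1 position in 5 of the 24, against 19.2% of all genes. The most used position was the same in both replicates in 17 of the 24, against 83.8% of all genes.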

How the data were processed

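Total RNA of 2 biological replicates was read by 3' READS, per the labels' protocols. Reads were aligned with Bowtie, going by the tools listed in the submitters' processing notes. Its version, the build and the treatment of multiply mapped reads were not given in the sources used. The deposited signal values (reads inside the ORF, in the window from 1 to 400 nt after it, and at the highest position) are reads multiplied by 1 factor per library, 0.858 and 0.940, as the values show. The deposited percent values give each position relative to the gene's highest position, set to 100 per the file headers and the values. Whole reads were recovered by division. Where the top position held up to 2000 reads, the result was whole to within 0.1 at 99.998% and 99.995% of positions in replicates 1 and 2. The pooled table was not used. The 42 ORFs matched assembly R64 in coordinates.

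Endpoint, leading position, effective number and span were computed per gene and replicate in Python 3.11.15 with pandas 2.3.3, numpy 2.4.6 and scipy 1.17.1, and tested on simulated data. A cluster of sites joins positions with reads in either replicate that lie at most 10 nt apart, so that single reads can bridge groups. Clusters with a mean share of at least 5% of the window reads were kept. Other call thresholds are given with the results. With 1 group no count model was run. The members and lists were chosen with earlier results of these data known. All members are named, and other replication genes by counts and their extremes. The planned motif search and the sequences of the poly(A) sites were not analysed here, since no genome sequence was at hand.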

Additional observations from a re-analysis of the deposited data

How the results depend on the processing

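No paired analysis was possible because both samples belong to 1 group. Of 41 values recomputed under alternatives, 30 stayed within the spread between replicates (counts within 1.5 times) and 11 moved. The median endpoint of the replication genes (104.7 nt) was 90.6 nt in positions 1 to 300, 88.0 nt as the read-weighted median position and 116.8 nt without genes whose window overlaps a feature on the same strand, and it ran from 97.0 to 107.9 nt with 1 replicate left out. Under these settings it stayed below that of all genes, which was 119.7, 118.0 and 129.6 nt in the same order and from 122.3 to 123.6 nt with 1 replicate. The median effective number (8.61) was 9.36 with at least 500 reads, 7.38 in positions 1 to 300, 8.37 in positions 21 to 400 and from 8.24 to 8.55 with 1 replicate left out. It lay below that of all genes in positions 1 to 300 (8.06), in positions 21 to 400 (8.39) and without replicate 1 (8.43), and above it otherwise, so its side of the median of all genes is not settled. The median level (36.9 RPM) was 41.0 without the 10 most read ORFs, where that of all genes rose from 52.9 to 58.7. Leaving out these ORFs changes only the denominator. With 1 replicate left out the median level was from 36.1 to 39.1, against 51.2 to 54.8 for all genes. With reads within 5 nt on either side of the leading position counted together, 21 of 42 genes, not 6, exceeded 50%, against 48.2% of all genes. The planned search for the motif TATATA and its alternatives were not run, for want of a genome sequence. Depth limits RFC2, POL30, CDC7 and PSF3 most, with 107 to 360 reads per replicate.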
